A study of Mus musculus with 2 samples.

Results

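Pex5l and Lsamp fibroblast nuclei are nuclei from mouse tissue, the ascending aorta with the arch, that carry fibroblast transcripts together with Pex5l, Adamtsl2 and Lsamp. They were chosen from raw counts of unique molecular identifiers (UMIs), which count captured RNA molecules. Barcodes with at least 300 detected genes were kept. A barcode entered the fibroblast gate when its UMIs of Pdgfra, Dcn and Col1a2 summed to at least 2 and exceeded the sum of the smooth muscle genes Myh11, Acta2 and Lmod1. It became a member when its UMIs of Pex5l, Adamtsl2 and Lsamp summed to at least 3 and exceeded each of 3 rival sums. The rivals were C7, Plcxd3, Ccbe1, Scara5 and Clec3b; Dact2, Adamts16, Grm7, Pla1a and Pi16; and Nlgn1, Chrm2, Tfap2b and Col6a6. This gave 674 members of 6921 fibroblast-gate nuclei and of 39516 barcodes in all. The Female library held 462 members and the Male library 212. The 6247 remaining fibroblast-gate nuclei, 2722 Female and 3525 Male, are called others below.

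Both groups of the study carried the same alleles, Wnt1-Cre and Rosa26-mTmG, and differed in sex; no Cre-negative library was among them. Wnt1-Cre is known for marking neural crest in the embryo. The reporter switches a cell and all its progeny to membrane GFP once Cre has acted and otherwise makes membrane tdTomato. The Female library came from pooled female animals and the Male library from pooled male animals, 6 mice being named in the labels without saying whether that is the number per sex, and no age or treatment is stated. Each sex is thus 1 library with no replicate, so no value has a test of sex. Because the members were chosen from these same counts, their differences from others are descriptions too.

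Pex5l encodes TRIP8b, a relative of the peroxisomal import receptor Pex5 that is best known in neurons, where it binds hyperpolarization-activated HCN channels and steers them to the membrane. Adamtsl2 encodes a secreted glycoprotein without protease activity that binds fibrillin-1 and the latent TGF-beta binding protein LTBP1 in matrix microfibrils. Lsamp encodes an IgLON protein, an immunoglobulin-type adhesion molecule anchored at the cell surface and studied mainly in the limbic system of the brain.

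On GRCm38, Pex5l spans chromosome 3, 32949408 to 33143247, minus strand, Adamtsl2 chromosome 2, 27079379 to 27108981, plus strand, and Lsamp chromosome 16, 39984361 to 42181679, plus strand. UMIs were summed over whole genes, so exon and intron are not told apart. The RefSeq promoter table (GRCm38.p6) matched 2 of these 3 genes, Adamtsl2 with 1 start and Lsamp with 2 starts 1548 kb apart. The 250 bases before each start are given 5′ to 3′ because these genes define the members, with motif matches in capitals. The Adamtsl2 window is chr2:27079129-27079378, the first Lsamp window chr16:39984114-39984363 and the second chr16:41532576-41532825, all on the plus strand.
Adamtsl2: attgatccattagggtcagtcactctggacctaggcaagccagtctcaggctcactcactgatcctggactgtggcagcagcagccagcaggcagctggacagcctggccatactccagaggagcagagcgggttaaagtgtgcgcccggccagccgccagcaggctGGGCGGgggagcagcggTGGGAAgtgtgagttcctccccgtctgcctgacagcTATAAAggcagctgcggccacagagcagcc
Lsamp, first start: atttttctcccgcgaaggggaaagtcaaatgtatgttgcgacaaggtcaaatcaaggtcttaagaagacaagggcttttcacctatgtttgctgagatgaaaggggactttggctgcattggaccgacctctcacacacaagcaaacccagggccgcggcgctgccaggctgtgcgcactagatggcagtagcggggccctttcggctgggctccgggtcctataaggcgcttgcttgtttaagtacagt
Lsamp, second start: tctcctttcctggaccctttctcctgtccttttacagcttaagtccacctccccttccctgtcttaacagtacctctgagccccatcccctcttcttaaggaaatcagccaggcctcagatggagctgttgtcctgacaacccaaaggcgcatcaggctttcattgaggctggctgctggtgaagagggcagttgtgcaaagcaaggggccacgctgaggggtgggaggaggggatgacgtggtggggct
Motifs were searched on both strands. The letters TATAAA stood for the TATA box and GGGCGG for the GC box. The core bound by RBPJ was searched as TGGGAA, and the E-box was searched as CACGTG. The Adamtsl2 window held the GC box 83 bases, the RBPJ core 66 bases and the TATA box 30 bases before the start. Over all 32851 promoter windows of 250 bases, 12.4% held the TATA box, 32.7% the GC box, 21.6% the RBPJ core and 6.02% the E-box. Neither Lsamp window held any of these letters. Gene-level UMIs do not tell which Lsamp start was in use.

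The genes of the rule were high in members by construction. Pex5l had 1382 CPM in Female and 1289 CPM in Male members (CPM, UMIs scaled to a group total of 1e6), against 90.9 and 65.5 CPM in others. Adamtsl2 had 238 CPM in Female and 279 CPM in Male members, against 19.3 and 29.2 CPM in others. Lsamp had 1877 CPM in Female and 1533 CPM in Male members, against 272 and 124 CPM in others. Here and below, where values are joined by "and" after a group's name or before it, the Female library's is given before the Male library's. Endothelial-gate nuclei, in which 3 endothelial genes sum to at least 3 UMIs and exceed the sums of the other cell classes, gave a background, Lsamp having 29.7 and 15.4 CPM in endothelial-gate nuclei and Pex5l 15.2 and 9.15 CPM. Their median depth was 3181 Female and 3105 Male UMIs. After thinning every nucleus to 1000 UMIs, Pex5l was found in 44.2% of Female and 47.1% of Male members, in 6.07% of Female and 4.66% of Male others and in 0.422% of Female and 0.504% of Male endothelial-gate nuclei. Thinning left out 5 Female and 6 Male members that had fewer UMIs, and without thinning the Pex5l shares of members were 55.8% and 68.9%.

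Most members carried only some of the 3 genes. In 210 members Lsamp alone was found, in 103 Pex5l alone and in 6 Adamtsl2 alone. Pex5l and Lsamp without Adamtsl2 were found in 146 members, Pex5l and Adamtsl2 without Lsamp in 90, Adamtsl2 and Lsamp without Pex5l in 54, and all 3 in 65. A nucleus with more Pex5l than Lsamp UMIs is called Pex5l-led and one with more Lsamp than Pex5l UMIs Lsamp-led. There were 172 Female and 106 Male Pex5l-led members and 274 Female and 98 Male Lsamp-led members, with 16 and 8 ties. At this depth a gene with 0 UMIs was not shown to be silent.

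**Figure D1:**
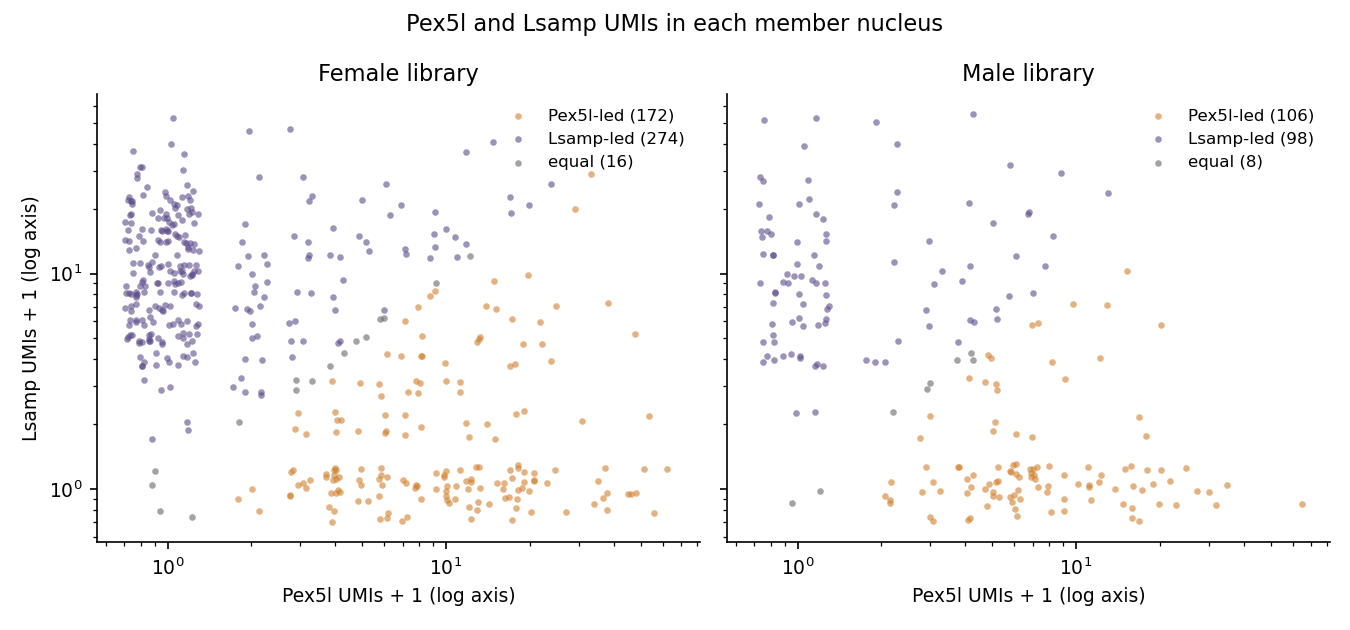
UMIs of Pex5l (x axis) and Lsamp (y axis) in each member, 1 point per nucleus, with 1 added and small random shifts for display on log axes; 462 Female members are on the left and 212 Male members on the right. Points gather along both axes, 172 Female and 106 Male members having more Pex5l and 274 and 98 more Lsamp.

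The edges of the rule held few nuclei, except for the contest with the rival sums. The Pex5l, Adamtsl2 and Lsamp sum was exactly 3 in 38 Female and 17 Male members. A sum of exactly 2 kept 18 Female and 22 Male nuclei out, and a tie with the highest rival 34 and 16. A further 477 Female and 406 Male fibroblast-gate nuclei had a sum of at least 3 that was below a rival sum. Members had a median sum of 10 Female and 8.5 Male UMIs, and the rival sum with the highest median, that of C7 and Scara5, a median of 2 and 1.5.

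Members had medians of 3575 Female and 3338.5 Male UMIs, against 3674 and 3822 in others, from libraries of 79294181 Female and 77989549 Male UMIs. Doublets were called in 28 Female (6.06%) and 17 Male members (8.02%), against 5.22% and 8.23% of others. Among the others that pass a stricter gate, described below, the rates were lower, at 1.91% and 2.59%. Members were not put through that gate. The libraries share 4287 barcode sequences, 2 of which are members in both libraries. The sequences of 104 Female and 44 Male members also occur in the other library. Xist had 2140 UMIs in Female and 2 in Male members, and the Y gene Uty 0 in Female and 122 in Male members, as the labels say.

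Fibroblast markers that the gate did not use were detected in members. The collagen gene Col1a1 had 498 CPM in Female and 417 CPM in Male members, against 285 and 274 CPM in others, and Col3a1 679 and 406 CPM in members and 408 and 464 CPM in others. The matrix proteoglycan gene Lum had 139.8 and 113 CPM in members and 75.6 and 53.9 CPM in others, and the matrix glycoprotein gene Fbln1 339.8 and 268 CPM in members and 277 and 245 CPM in others. With Pdgfrb, given below, these are the 5 of 8 fibroblast markers outside the gate. Each was higher in members than in others, except Col3a1 in the Male library. Markers of other cell types were detected too. The 6 endothelial markers summed to 777 CPM in Female and 1385 CPM in Male members, against 2089.9 and 2677 CPM in others, and the 6 smooth muscle markers to 429.9 and 446 CPM in members against 335 and 315 CPM in others. The 5 mesothelial markers summed to 26.5 CPM in Female and 174 CPM in Male members and the 6 macrophage markers to 84.0 and 15.6 CPM, with none of either list at 0 except 1 macrophage gene in Male members. Of the 5 pericyte markers, which summed to 809 and 626 CPM in members and 488 and 409 CPM in others, Higd1b was at 0 in both libraries. The 5 Schwann or glial markers summed to 49.7 CPM in Female and 92.5 CPM in Male members, against 41.8 and 23.7 CPM in others. They rested on 90 and 77 UMIs in members, and their part in the members' values was not tested. A stricter gate, in which Pdgfra, Dcn and Col1a2 reach 3 UMIs and exceed the endothelial, smooth muscle, macrophage and adipocyte sums, kept 82.9% of Female members (383 nuclei) and 159 of the 212 Male members, and 69.2% and 64.5% of others. Endothelial-gate nuclei made up 22.0% of Female and 26.2% of Male others but 7.36% and 11.3% of members. The others that pass this stricter gate are called strict others. Endothelial markers summed to 355 and 459 CPM in strict others, below the 777 and 1385 CPM in members, whose own nuclei were not restricted in that comparison. All 8 fibroblast markers, the gate genes included, summed to 4527 CPM in Female and 3788 CPM in Male members. In strict others they summed to 4283 and 4353 CPM, so members were above strict others in the Female library only.

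Lamc3, Heyl, Col15a1 and Cdh18 were among the genes with more transcript in members than in others, and Dpp4 and Sema3c among those with less. Of 7772 genes with at least 50 UMIs in each library and 20 CPM in either group, 142 were at least 2-fold higher in members in both libraries (1.83%) and 202 at least 2-fold lower (2.6%), leaving out the 23 genes of the gates and sums. The ratio is log2 of CPM plus 5 in members over CPM plus 5 in others. The median over all these genes was -0.02 (Female) and -0.01 (Male). Against strict others, 187 of 7613 genes were higher (2.46%) and 202 lower (2.65%); 88 of the 142 higher and 115 of the 202 lower genes were called in that comparison too. Smooth muscle-gate nuclei had more of 38 of the 142 higher genes than members did in both libraries. How often this held over all 7772 genes was not counted, so that count has no background. Calls from 1 library alone were more numerous, 248 higher and 352 lower without the Female library and 202 higher and 395 lower without the Male library.

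Some basement membrane genes were higher in members. Lamc3, a laminin gamma chain (chromosome 2, 31887291 to 31946539, plus strand), had 205 CPM in Female and 382 CPM in Male members, against 28.3 and 41 CPM in others, log2 ratios of 2.66 and 3.07. It rested on 371 and 318 UMIs in members. At 1000 UMIs per nucleus Lamc3 was found in 16.2% of Female and 25.2% of Male members, against 2.68% of Female and 3.58% of Male others and 1.89% of Female and 2.87% of Male endothelial-gate nuclei. The groups stood apart in both libraries. Lama2, the laminin alpha chain of muscle and connective tissue, had 3403 CPM in Female and 3508 CPM in Male members, against 1162 and 1063 CPM in others, and Egflam, a secreted protein that binds dystroglycan, 113 and 86.5 CPM in members and 27.7 and 25.1 CPM in others. Among 10 basement membrane genes measured of 13 listed, these 3 were 2-fold higher and none 2-fold lower, with list medians of -0.14 and -0.17. Against strict others Nid1, a linker of basement membrane laminin, was 2-fold lower, at -1.31 and -1.36. Col15a1, a collagen of basement membrane zones, had 314 CPM in Female and 244 CPM in Male members, against 63.3 and 39 CPM in others. Of 14 measured collagens outside the fibrillar group, 5 were higher and none lower: Col15a1, Col8a1, Col6a3 and the paired X-linked genes Col4a5 and Col4a6, with medians of 0.46 and 0.64. Col4a6 had 659.8 and 628 CPM in members and 209 and 155 CPM in others. Against strict others Col6a3 and Col4a5 were under 2-fold in at least 1 library, at 0.82 and 0.69 and 0.98 and 1.07, and Col14a1 was 2-fold lower, at -1.01 and -1.66.

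Heyl and Notch3 were the higher genes of the Notch list. Heyl, a Notch-responsive transcriptional repressor (chromosome 4, 123233556 to 123249875, plus strand), had 118 CPM in Female and 133 CPM in Male members, against 11.9 and 13.6 CPM in others, log2 ratios of 2.87 and 2.89 from 214 and 111 UMIs in members. At 1000 UMIs per nucleus Heyl was found in 10.1% of Female and 12.6% of Male members, against 1.13% of Female and 1.31% of Male others and 0.683% of Female and 0.615% of Male endothelial-gate nuclei. Smooth muscle-gate nuclei also held Heyl, at 81.5 and 77.9 CPM. Notch3, a receptor of mural cells, completed the 2 of 8 measured Notch genes past 2-fold against others, with 30.9 and 42 CPM in members and 9 and 6.58 CPM in others. Against strict others the receptor Notch1 was 2-fold higher too, at 1.02 and 1.45. Members were not restricted there. Endothelial markers summed to 777 and 1385 CPM in members, against 355 and 459 CPM in strict others, and their part in the Notch1 ratio was not tested. The PDGF receptor gene Pdgfrb had 461 CPM in Female and 422 CPM in Male members, against 203 and 173 CPM in others, and Pdgfrl, a related soluble protein, 87.9 and 74.5 CPM in members and 28.2 and 25 CPM in others. Pdgfrb is also one of the fibroblast markers, and its ratios against strict others were 0.99 and 1.12. The CCN family genes Wisp1 and Wisp2, secreted modulators of matrix and Wnt signalling, had log2 ratios of 2.12 and 1.89 and of 2.09 and 2.03. Their sister Ctgf had 262 CPM in Female and 523 CPM in Male members, against 109 and 192 CPM in others. Runx1 and Runx2, transcription factors of blood and bone lineages, had 1.02 and 1.41 and 1.10 and 1.47, and the T-box repressor Tbx2 1.84 and 1.66, the one gene 2-fold higher among 24 measured arch and outflow tract factors. Runx2 lies over Supt3 in the annotation, so its UMIs are uncertain if strand was not used in counting.

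Gfra2, the receptor for neurturin, had 170.2 CPM in Female and 112 CPM in Male members, against 24.7 and 13.4 CPM in others, and stood at 3.33 and 0.903 CPM in endothelial-gate nuclei. Cdh18, a type II cadherin, had 218 and 199 CPM in members and 35.6 and 20.8 CPM in others, and Cntn6, a contactin of axon surfaces, 246 and 197 CPM in members and 61.8 and 31.7 CPM in others. Members stood above others in both libraries for each. Ntng1, the netrin-G1 adhesion protein, had log2 ratios of 1.93 and 1.98, the proline transporter gene Slc6a7 2.10 and 2.33 and the giant lipoprotein receptor-related gene Lrp1b 2.73 and 4.27. Lrp1b UMIs in members were 194 and 261 UMIs, and the gene was found in only 9.31% of Female and 16.5% of Male members. Dio2, the deiodinase that activates thyroid hormone, had 81.2 CPM in Female and 109 CPM in Male members, against 9.09 and 11.7 CPM in others. Adcy7, an adenylyl cyclase, had 762 CPM in Female and 619 CPM in Male members, against 144 and 123 CPM in others and 226 and 196 CPM in smooth muscle-gate nuclei. Dapk2, a death-associated kinase, and Fbxo40, a muscle F-box protein, completed the 15 named genes, with log2 ratios of 1.91 and 2.10 and of 2.05 and 1.96. Fbxo40 was the 1 named gene with more CPM in smooth muscle-gate nuclei than in members in both libraries.

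Piezo2 and Cacna1g passed 2-fold among 15 measured calcium channel and mechanosensor genes. Piezo2, a mechanically gated channel, had 248 CPM in Female and 226 CPM in Male members, against 60.5 and 59.7 CPM in others. Cacna1g, a T-type calcium channel subunit, had 59.1 and 61.3 CPM in members and 15.6 and 16.5 CPM in others. The medians of that list were 0.37 and 0.41, with none 2-fold lower. The endothelin receptor gene Ednra had 156 and 125 CPM in members and 58.4 and 42.7 CPM in others, but was under 2-fold against strict others in the Female library, at 0.95. Hcn4, a cardiac pacemaker channel subunit, had 0 UMIs in members of both libraries, which, taking 3 counts as the limit for a count of 0, allows up to 1.66 CPM in Female and 3.604 CPM in Male members.

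Genes lower in members included those of the fibroblast programme marked by Pi16 and Dpp4. Of 14 measured genes of that list, 8 were 2-fold lower and 1, Col15a1, higher, with medians of -1.66 and -1.52. Pi16 and other rival genes were part of the rule, so this direction is partly built in. Dpp4, a membrane dipeptidase, had 12.2 CPM in Female and 34.8 CPM in Male members, against 229 and 240.0 CPM in others. Sema3c, a secreted semaphorin, had 74.6 and 98.5 CPM in members and 644 and 557 CPM in others, and Fn1, fibronectin, 72.9 and 82.9 CPM in members and 319.6 and 283 CPM in others. The protease Pcsk6 had log2 ratios of -2.59 and -3.32, the adhesion receptor Adgrd1 -2.36 and -2.51, the stromal glycoprotein Cd248 -2.29 and -2.44, the phosphodiesterase Pde8a -2.36 and -2.66 and the adhesion gene Sdk1 -2.53 and -2.59. Efhd1, a mitochondrial calcium-binding protein, had 11 and 2 UMIs in members, against 83 and 76.3 CPM in others, and Cadm3, which lies over Ackr1 and Aim2, 3 and 1 UMIs, against 40.2 and 37.4 CPM in others. Nrg1, a growth factor of the EGF family, had 27.1 and 20.4 CPM in members and 157 and 226 CPM in others, but 13 and 6.49 CPM in strict others. Its direction thus turned when others alone were restricted, at 0.83 and 1.15 against strict others. Members were not restricted there and had more of the endothelial markers than strict others, as given above. In members 16 of 49 Female and 7 of 17 Male Nrg1 UMIs lay in 1 nucleus. Endothelial-gate nuclei had 313 and 421 CPM of Nrg1. In both libraries 84 of the 202 lower genes had more CPM in that gate than in others. The same share over all measured genes was not counted, so nothing is read from that count.

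Elastic fibre genes split. Ltbp2, a latent TGF-beta binding protein of microfibrils, had 86.8 CPM in Female and 173 CPM in Male members, against 27.7 and 34.6 CPM in others, and Mfap4, a microfibril-associated protein that overlaps Mapk7, 211 and 167 CPM in members and 79.4 and 79.1 CPM in others. Fbn1, fibrillin-1, a binding partner of the Adamtsl2 protein, was lower, with 332 CPM in Female and 398 CPM in Male members, against 673 and 1028 CPM in others. Efemp1 and Emilin2, other microfibril proteins, had ratios of -1.45 and -1.39 and of -1.90 and -2.48. Over 17 measured genes the medians were -0.02 and 0.11. Against strict others Eln, elastin, was also higher, at 1.26 and 1.41, and Mfap4 was under 2-fold, at 0.92 and 0.59. Eln was abundant outside fibroblasts, at 3999 and 4194 CPM in endothelial-gate nuclei and 3782 and 4893 CPM in smooth muscle-gate nuclei. Its part in the members' values was not tested.

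Among other lists, Igf1 and the binding protein Igfbp7 were higher (1.28 and 1.24; 1.08 and 1.17) and Igfbp5 and Igfbp6 lower (-1.54 and -1.22; -2.42 and -1.32), while both higher genes were under 2-fold against strict others. Complement C3 and its regulator Cd55 had ratios of -1.03 and -1.59 and of -2.04 and -1.60 among 14 measured complement and chemokine genes, of which 2 were lower against others and 6 against strict others. Of 24 guidance genes, the receptors Unc5b (2.05 and 1.60) and Epha3 (1.28 and 1.12, or 0.85 and 0.62 against strict others) and Ntng1 were higher and the semaphorins Sema3c and Sema3e lower. Opcml, an IgLON relative of Lsamp, was lower in members, with 716 CPM in Female and 308 CPM in Male members, against 2867 and 1624 CPM in others. Another relative, Negr1, was below 2-fold, at -0.21 and -0.35. Within members Opcml had 374 and 125 CPM in Pex5l-led members and 947 and 507 CPM in Lsamp-led members. No ribosomal protein, mitochondrial, immediate early, heat shock or steroid response gene was 2-fold apart from others in both libraries. All these lists but the steroid response one had medians below 0 in both libraries. In the order named they were -0.53 and -0.59, -0.55 and -0.65, -0.38 and -0.37, and -0.31 and -0.40. Against strict others the immediate early gene Dusp1 was 2-fold lower, at -1.54 and -1.04, and that list's medians were -0.73 and -0.83.

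**Figure D2:**
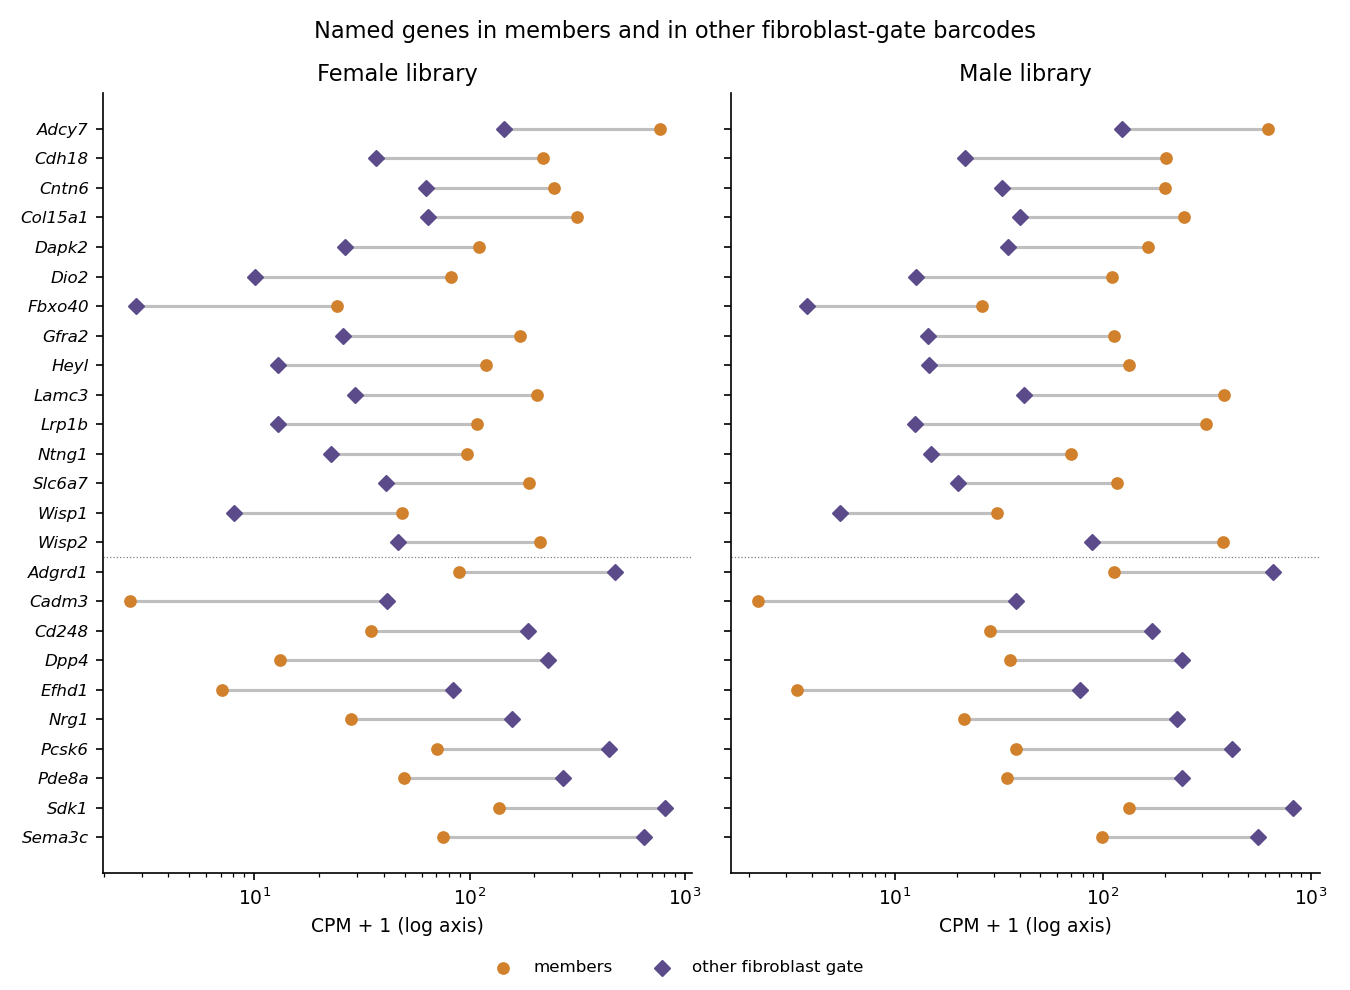
CPM plus 1 (log axis) of the 25 genes named by size of ratio, in members (circles) and others (diamonds), with the Female library on the left and the Male library on the right; a dotted line parts 15 genes higher in members from 10 lower. Both libraries show the same direction for all 25 genes, as the call rule requires. Nrg1 turns against strict others, where members were not restricted.

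Heyl and Lamc3 were also higher in members than in the 2 larger fibroblast groups that the rival sums pick out. C7 and Scara5 nuclei numbered 1204 Female and 1728 Male and Pi16 and Dact2 nuclei 606 and 671. Heyl had 118 and 133 CPM in members, 12.6 and 14.1 CPM in C7 and Scara5 nuclei and 12.5 and 9.32 CPM in Pi16 and Dact2 nuclei. Lamc3 had 205 and 382 CPM in members, 22.8 and 41.4 CPM in C7 and Scara5 nuclei and 17.3 and 19.3 CPM in Pi16 and Dact2 nuclei. Members lay several-fold above each group. Dpp4 was lower, at 12.2 and 34.8 CPM in members, with 106 and 120.4 CPM in C7 and Scara5 nuclei and 553 and 506 CPM in Pi16 and Dact2 nuclei. The groups were defined by counts from the same nuclei, so these values are descriptions.

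Genes outside the rule also gathered the members. Fibroblast-gate nuclei were clustered on 2000 variable genes without the rule genes, which gave 14 clusters. One, led by Lamc3, Cdh18, Gfra2, Egflam and Wisp2, held 322 of 462 Female members (69.7%) and 144 of 212 Male members (67.9%), against 21.1% of all Female and 13.8% of all Male fibroblast-gate nuclei. Members formed 47.8% of its Female and 27.9% of its Male nuclei, so most of its nuclei were not members. The cluster held 84.3% of Female and 80.2% of Male Pex5l-led members, and 59.1% and 56.1% of Lsamp-led members. The share depended on the clustering, at 69.1% over both libraries against 64.1% at resolution 0.4, 38.3% at resolution 1.2 and 50.7% without called doublets. Lsamp-led members were found in further clusters: 26 Female and 9 Male in one led by Myoc, Lepr and Cilp, 27 and 3 in one led by Lgi1 and Gdf10 among others, and 19 and 12 in one led by Bmper, Fgf10 and Sparcl1, where Pex5l-led members numbered 0 to 4. Further members lay in clusters whose leading genes include markers of other cells, 18 Female and 13 Male members with Kcnn4, Cldn5 and Podxl, of which 9 and 7 were Pex5l-led, 7 and 7 with Nrg1 and Emcn, 3 Female and 8 Male members with Kcnd2, Muc16 and Upk3b, 5 and 3 with Car3, Pparg and Plin1, 6 and 0 with F13a1 and Mrc1, and 3 and 2 with Sox10.

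Eln, Fbln5 and Sfrp2 were among the genes higher in Pex5l-led than in Lsamp-led members, and Fgf10, Gdf10 and Apod among those lower. Of 6606 genes with at least 20 UMIs in each library and 20 CPM in either group, 74 were at least 2-fold higher in Pex5l-led members in both libraries (1.12%) and 64 at least 2-fold lower (0.969%). The medians over these genes were -0.04 and -0.01. Of the 74 genes, 28 were also among those higher in members than in others, and of the 64 genes 12 were among those lower. The matching share over all 6606 genes was not counted, and both comparisons use the same member nuclei. Nothing is read from these counts. The leading gene was chosen from these UMIs, so the difference in Pex5l and Lsamp is built in. Without the Female library 386 genes were higher and 314 lower, and without the Male library 191 and 305.

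In the elastic fibre list, 4 genes were higher in Pex5l-led members. Eln (chromosome 5, 134702593 to 134747323, minus strand) had 3705 CPM in Female and 6249 CPM in Male Pex5l-led members, against 1062 and 1759.9 CPM in Lsamp-led members, log2 ratios of 1.80 and 1.83 from 2604 and 2598 UMIs in Pex5l-led members. The gap was near equal in the libraries. Fbln5, which tethers elastin to cells, had 588 and 657 CPM in Pex5l-led members and 186 and 202 CPM in Lsamp-led members, Ltbp2 145 and 262 CPM in Pex5l-led members and 39.9 and 87.1 CPM in Lsamp-led members, and Mfap4 302 and 233 CPM in Pex5l-led members and 146 and 99.9 CPM in Lsamp-led members. These 4 were the genes past 2-fold among 15 measured, with medians of 0.32 and 0.50 and none 2-fold lower. Smooth muscle markers summed to 484 CPM in Female and 486 CPM in Male Pex5l-led members, against 395 and 399.6 CPM in Lsamp-led members. Endothelial markers summed to 562 and 1183 CPM in Pex5l-led and 927 and 1527 CPM in Lsamp-led members, and mesothelial markers to 1.42 and 257 CPM and to 44.6 and 97.3 CPM in these groups. White adipocyte markers summed to 186 and 399 CPM in Pex5l-led and 156 and 97.3 CPM in Lsamp-led members, and brown adipocyte markers to 249 and 382 CPM and to 188 and 118 CPM. Dio2, named above as higher in members, is 1 of the 5 brown adipocyte markers. It held 147 of the 383 Female and 91 of the 207 Male UMIs of that list in members. Smooth muscle-gate nuclei had more than Pex5l-led members of 14 of the 74 genes in both libraries, among them Dtna, Mtus2 and Kcnip4. The matching share over all measured genes was not counted. The part of these other cell types in the values was not tested.

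In the Wnt list, 4 genes were higher in Pex5l-led members. Sfrp2, a secreted Wnt modulator, had 148 CPM in Female and 221 CPM in Male Pex5l-led members, against 37 and 20.5 CPM in Lsamp-led members. Frzb, a related antagonist, had 64 and 91.4 CPM in Pex5l-led members and 5.7 and 25.6 CPM in Lsamp-led members, the receptor Fzd6 ratios of 1.12 and 1.14, and the R-spondin Rspo2 22 and 20 UMIs in Pex5l-led members. These stood among 18 measured Wnt genes, with none 2-fold lower and medians of 0.12 and 0.07. The protease gene Adamts17 had 228 and 55.3 CPM in Pex5l-led members and 28.5 and 10.2 CPM in Lsamp-led members and Adamts6 551 and 630.2 CPM in Pex5l-led members and 205 and 118 CPM in Lsamp-led members. Ctgf, Comp, Runx1 and Igf1 were higher too, at 1.25 and 1.28, 1.08 and 1.98, 1.03 and 1.17 and 1.42 and 1.14. Cdh18, high in members as a whole, had 404 and 332 CPM in Pex5l-led members and 101 and 46.1 CPM in Lsamp-led members. Other named genes of this side were Nkain2 (2.17 and 2.24), Stk32a (2.24 and 2.26), Sntg2 (1.76 and 1.75), Sytl5 (3.15 and 2.20), Trim7 (2.18 and 1.96), Atp10b (1.88 and 2.46), Ctnnd2 (1.85 and 2.13), Dtna (2.04 and 1.87) and Mtus2 (1.71 and 1.76). Kcnip4, an auxiliary potassium channel subunit that overlaps 5730480H06Rik, had 175 and 173 CPM in Pex5l-led members, against 40.8 CPM in Female Lsamp-led members and 0 UMIs in Male ones, at least 22.5-fold higher there against a floor of 3 counts. Of 72 Male Kcnip4 UMIs in members, 28 lay in 1 nucleus.

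Fgf10, a mesenchymal growth factor for epithelium and fat, had 7.11 CPM in Female and 4.81 CPM in Male Pex5l-led members, against 84.5 and 74.3 CPM in Lsamp-led members. Fgf7, its close relative, which overlaps Fam227b, had 48.4 and 19.2 CPM in Pex5l-led members and 149 and 99.9 CPM in Lsamp-led members. Gdf10, a TGF-beta family ligand, had 25.6 and 19.2 CPM in Pex5l-led members and 110.2 and 131 CPM in Lsamp-led members, and Pgf, placental growth factor, 7.11 and 4.81 CPM in Pex5l-led members and 44.6 and 53.8 CPM in Lsamp-led members. All 4 were lower in Pex5l-led members in both libraries. In Male Pex5l-led members 3 counts correspond to 7.22 CPM, so Fgf10 and Pgf rested on fewer counts there. Of the Fgf10 UMIs in members, 23 of 95 Female and 8 of 31 Male ones lay in 1 nucleus. Apod, a lipid-binding apolipoprotein, had 2.85 and 12 CPM in Pex5l-led members and 51.3 and 223 CPM in Lsamp-led members, and 47 of the 93 Male Apod UMIs in members lay in 1 nucleus. Sparcl1, a matricellular glycoprotein, had 4 and 0 UMIs in Pex5l-led and 71 and 39 UMIs in Lsamp-led members. Penk, the enkephalin precursor, had 0 and 2 UMIs in Pex5l-led and 30 and 18 UMIs in Lsamp-led members. Lvrn, an aminopeptidase, had 0 and 1 UMIs in Pex5l-led and 45 and 146 UMIs in Lsamp-led members. Sntg1, Sdk1, Ifi207, Hmcn2, Adam19, Inpp4b and Ppfia2 were also on this side, with ratios of -3.57 and -3.26, -2.31 and -3.44, -3.06 and -3.71, -2.54 and -3.60, -2.09 and -3.39, -2.24 and -1.81 and -2.32 and -2.33. Ppfia2 overlaps Acss3, and 48 of the 127 Male Sntg1 UMIs in members lay in 1 nucleus. Several of these genes also lead the clusters that held Lsamp-led members outside the main cluster (Fgf10 and Sparcl1; Hmcn2; Gdf10). Col15a1 was 198 and 89 CPM in Pex5l-led members and 388 and 415 CPM in Lsamp-led members, below 2-fold in the Female library, while Heyl and Lamc3 were below 2-fold in both, at 0.69 and 0.79 and 0.28 and 0.49. All 15 genes named as high in members were above others in Pex5l-led and in Lsamp-led members alike, in both libraries. They were chosen by their ratios in these same members, so this is partly built in and nothing is read from it.

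**Figure D3:**
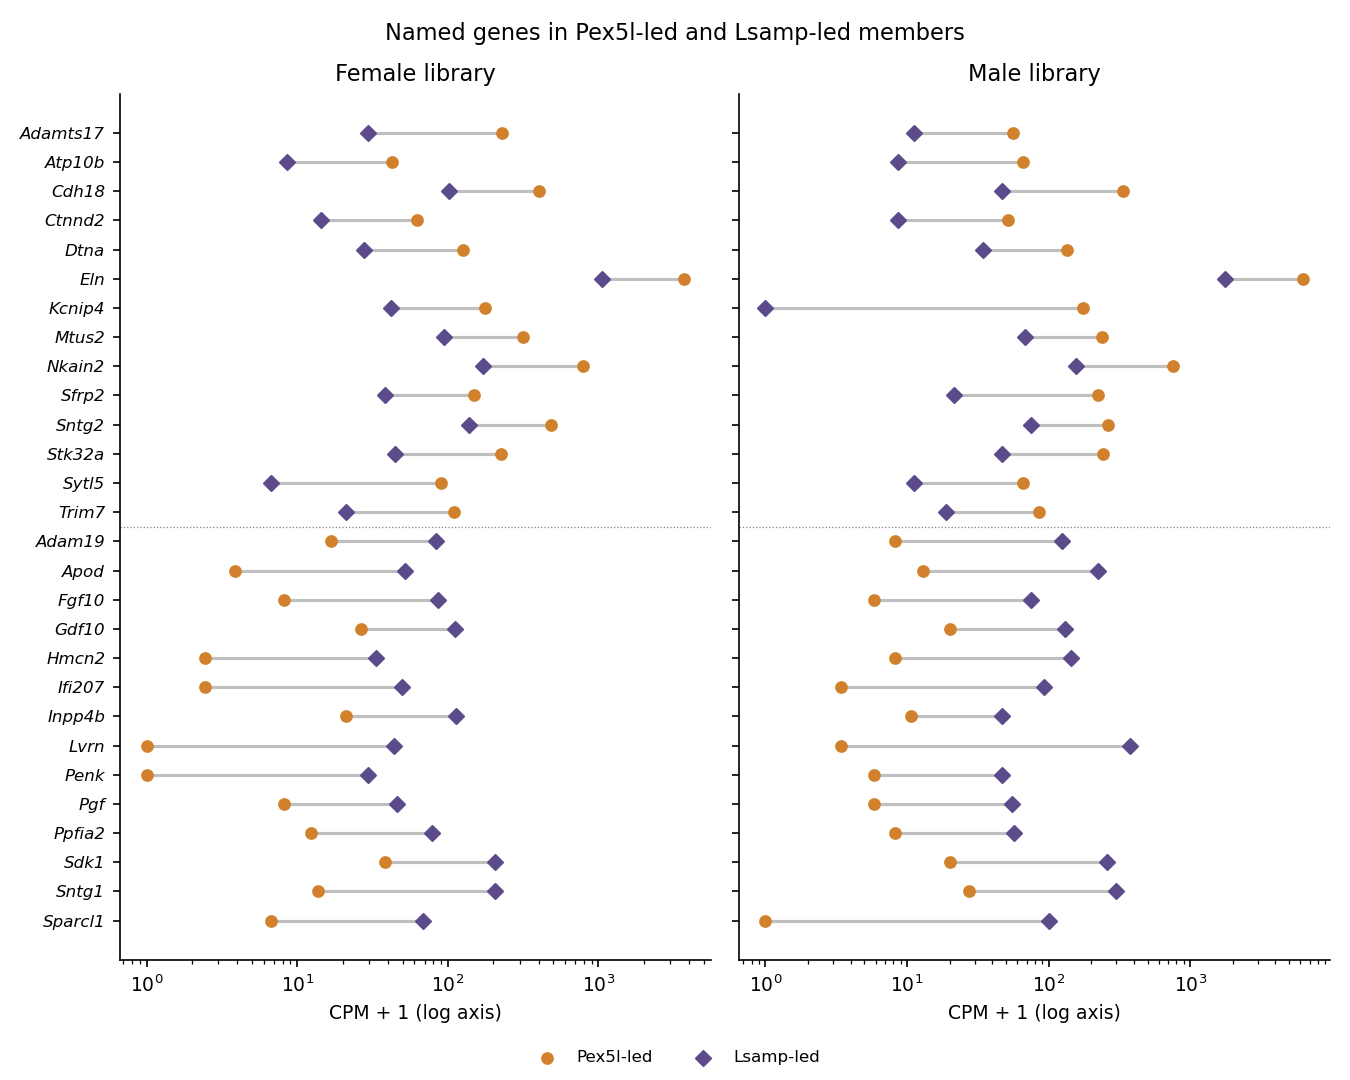
CPM plus 1 (log axis) of named genes in Pex5l-led members (circles) and Lsamp-led members (diamonds), Female library on the left and Male library on the right. The genes above the dotted line were higher in Pex5l-led members in both libraries, Eln at 3705 against 1062 CPM in the Female library among them, and those below it were higher in Lsamp-led members.

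The lineage reporter was read in members as the GFP share of reporter UMIs. Of the GFP and tdTomato UMIs in members, GFP took as many as tdTomato in Female members (141 UMIs each, 95% interval of the share 44.0% to 56.0%) and 55.8% in Male members (96 beside 76 UMIs, 48.1 to 63.4). The shares were 42.3% and 38.0% in others, 61.0% and 58.1% in strict others, and 55.0% and 54.1% in smooth muscle-gate nuclei. Endothelial-gate nuclei gave 16.9% and 17.4%, which serves as the background in cells that Wnt1-Cre should not mark. Macrophage-gate nuclei, a further background, gave 24.0% and 22.4%. C7 and Scara5 nuclei were at 60.1% and 58.4%, and Pi16 and Dact2 nuclei at 47.9% and 45.3%. Members differed from C7 and Scara5 nuclei by -10.1 points (-17.0 to -3.08) and -2.56 points (-10.8 to 5.52). From Pi16 and Dact2 nuclei they differed by 2.11 points (-5.52 to 9.71) and 10.5 points (1.54 to 19.2). All intervals are exact or built from exact ones and cover counting error only. Members exceeded others by 7.66 points in the Female library (1.31 to 14.0) and by 17.8 points in the Male one (9.88 to 25.6). With at least 5 UMIs of the fibroblast genes in the gate the differences were 1.97 and 5.38 points. Against strict others the difference was -11.0 points (-17.6 to -4.30) and -2.33 points (-10.5 to 5.68). Its direction thus turned when others alone were restricted. Members were not put through the strict gate there, so the sides were gated unlike. Endothelial-gate nuclei made up 22.0% of Female and 26.2% of Male others, and 7.36% of Female and 11.3% of Male members. Their part in either difference was not tested. Most members carried neither reporter, 63.9% of Female and 55.7% of Male members. GFP alone was found in 17.1% of Female and 24.1% of Male members and tdTomato alone in 15.8% and 16.0%.

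The GFP share of reporter UMIs was higher in Pex5l-led than in Lsamp-led members in both libraries. Pex5l-led members had 58.2% GFP in the Female library (48.4 to 67.5) and 69.1% in the Male one (57.9 to 78.9), against 45.1% (37.4 to 53.1) and 44.2% in Lsamp-led members (33.5 to 55.3). The differences were 13.1 points (0.451 to 25.2) and 24.9 points (9.14 to 39.5). They rested on 64 Female and 56 Male GFP UMIs beside 46 and 25 tdTomato UMIs in Pex5l-led members. Lsamp-led members had 74 and 38 GFP UMIs beside 90 and 48 tdTomato UMIs. Counted by nuclei, GFP alone was found in 18.6% of Female (13.1 to 25.2) and 29.2% of Male Pex5l-led members (20.8 to 38.9), against 16.8% (12.6 to 21.8) and 19.4% of Lsamp-led members (12.1 to 28.6), so the intervals overlapped. TdTomato alone was found in 14.5% and 12.3% of Pex5l-led and in 16.4% and 19.4% of Lsamp-led members. Endothelial markers, of a class at 16.9% and 17.4% GFP, were lower in Pex5l-led members, at the values given above, and their part was not tested.

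**Figure D4:**
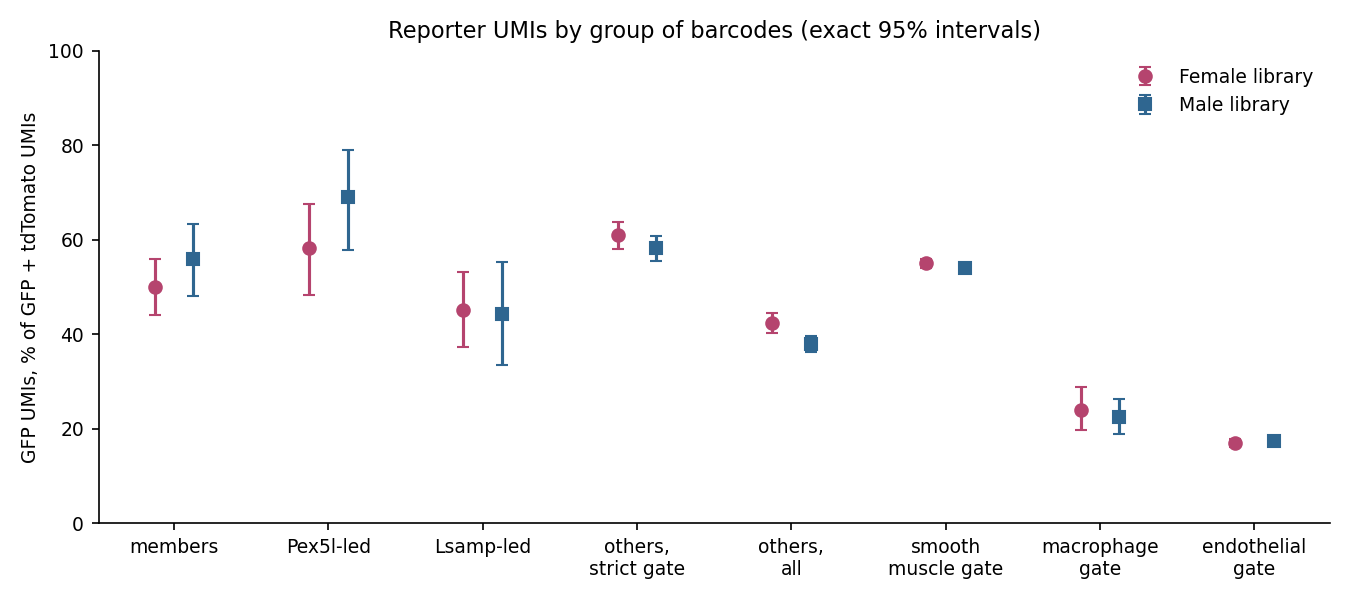
GFP UMIs as a percentage of GFP plus tdTomato UMIs (y axis) for groups of nuclei (x axis), Female library as circles and Male library as squares, with exact 95% intervals for counting error. Male members lie at 55.8%, Pex5l-led above Lsamp-led members in both libraries, and the endothelial gate at 16.9% and 17.4%.

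Members made up a larger share of the Female library. They were 14.5% of Female (13.3 to 15.8) and 5.67% of Male fibroblast-gate nuclei (4.95 to 6.46), a difference of 8.84 points (7.40 to 10.3), and 2.45% and 1.03% of all barcodes. Within the strict gate the shares were 16.9% and 6.53%. Lsamp itself differed between the libraries outside members, at 272 and 124 CPM in others and 29.7 and 15.4 CPM in endothelial-gate nuclei. With Lsamp left out of the sum the shares were 6.41% and 3.32%, and with Pex5l left out 9.45% and 2.97%. Pex5l-led nuclei were 37.2% of Female members and 106 of the 212 Male members (difference -12.8 points, -20.99 to -4.46). With 1 library per sex, sex cannot be told apart from dissection or nucleus recovery.

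Between Female and Male members, 73 of 7401 autosomal genes were at least 2-fold higher in Female members (0.986%) and 88 at least 2-fold lower (1.19%). Genes measured here had at least 50 UMIs over both libraries together and 20 CPM in either. Each call is 1 ratio between the libraries. In others, a larger group, the counts were 6 (0.0779%) and 17 (0.221%) of 7704 genes. In the steroid response list, 4 genes were at least 2-fold lower in Female members, and in Female others as well. Fkbp5, a chaperone induced by glucocorticoids, had 154 CPM in Female (136 to 173) and 559 CPM in Male members (509 to 612), log2 ratio -1.83 in members and -1.34 in others. Zbtb16, a zinc finger factor also induced by glucocorticoids, had 313 CPM in Female (288 to 339.6) and 1091 CPM in Male members (1021 to 1164), log2 -1.79 and -1.71. The metallothionein Mt1 had 22.7 CPM in Female (16.3 to 30.7) and 102 CPM in Male members (81.6 to 126), log2 -1.95 and -1.06. Mt2 was at -1.33 in members and -1.40 in others, and these 4 were the genes past 2-fold among 10 measured in the list. In Pex5l-led members the ratios of Mt1 and Mt2 were -3.11 and -2.47, and in Lsamp-led members -0.07 and 0.47. This contrast was not tested.

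The genes named next were 2-fold higher in Female members but not in Female others. St8sia2, a polysialyltransferase, had 40.9 CPM in Female (32.1 to 51.3) and 4.81 CPM in Male members (1.31 to 12.3), and Slc4a10, a bicarbonate transporter, 38.1 CPM in Female (29.7 to 48.3) and 7.21 CPM in Male members (2.65 to 15.7). Female members were above Male members in each, on few Male UMIs. Of 21 Male Hs6st3 UMIs 11 lay in 1 nucleus. Hs6st3, Adamts17, Fads2, Meox2 and Ipmk had log2 ratios of 1.73, 1.55, 1.57, 1.49 and 1.49, against 0.50, 0.39, 0.37, 0.39 and -0.14 in others.

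Of the 8 named genes higher in Male members, 4 were not 2-fold higher there among members that pass the strict gate and hold at most 1 mesothelial UMI. Kcnd2, a potassium channel subunit, had 13 UMIs in Female and 122 in Male members, with 41 of the Male UMIs in 1 nucleus. Rbfox1, a splicing factor, had 214 and 678 UMIs, Gpm6a 44 and 98, and Rspo1 19 and 46. The mesothelial markers summed to 26.5 CPM in Female and 174 CPM in Male members, and all 5 were above 0 in both; the strict gate and the mesothelial limit were applied together, so their parts were not told apart. In members of the strict gate with at most 1 mesothelial UMI, 382 Female and 155 Male, the log2 ratios were -0.52 for Kcnd2, -0.32 for Rspo1, and turned to 0.32 for Gpm6a and 2.37 for Rbfox1. The other 4 kept their direction there. Trim67, a ubiquitin ligase, had 12.7 CPM in Female (8.06 to 19.1) and 98.5 CPM in Male members (78.3 to 122) and was at -2.67 in the restricted set. Me3, the mitochondrial malic enzyme, was at -2.12 and -2.32, Ccdc170 at -1.96 and -1.52, and Lvrn at -2.60 and -3.05, with 45 of 147 Male Lvrn UMIs in 1 nucleus. The named genes higher in Female members also kept their direction in the restricted set.

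**Figure D5:**
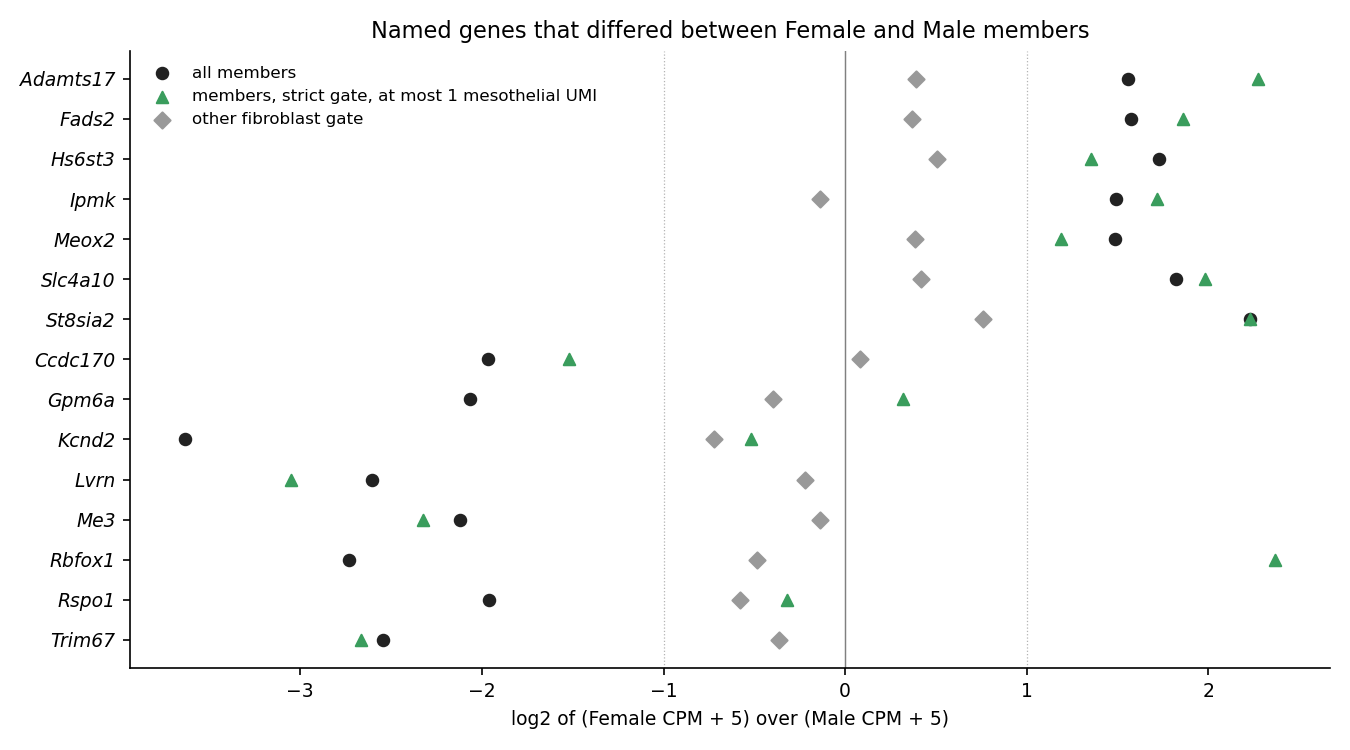
Log2 ratio of Female to Male CPM plus 5 (x axis) for named genes, in all members (circles), in members of the strict gate with at most 1 mesothelial UMI (triangles) and in others (diamonds); dotted lines mark 2-fold. Gpm6a and Rbfox1 lie on opposite sides for circles and triangles, and in others every gene drawn lies within 2-fold.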

How the data were processed

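Nuclei of pooled Wnt1-Cre/Rosa26-mTmG aortas gave 1 droplet-based single-nucleus RNA library per sex. The deposited matrices hold raw UMI counts per gene and barcode, written by Cell Ranger 7.0.0 per the file headers. STAR, Cell Ranger, Seurat 4.4.0 and GRCm38 are named in the submitters' processing notes. The sources used here do not give annotation version, strand setting or intron counting, so overlapping genes are uncertain. Per the labels' protocols each pool was split into 2 technical replicates, which the barcodes do not tell apart.

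From these counts, UMIs were summed over each group and library, scaled to CPM, and compared as log2 of CPM plus 5. A gene was called when at least 2-fold apart in the same direction in both libraries. Between Female and Male nuclei it was called from the 1 ratio between the libraries, which no further library repeats. These are rules of size, with no test. Members and gene lists were chosen with earlier results of these data known. Genes were named by size, up to 15 higher and 10 lower in members and 8 each way between sexes, among called genes found in at least 5% of the higher group, leaving out rule genes, unnamed gene models and genes below 0.1 of the highest cell-class gate, plus up to 4 per list; cluster and check genes outside this were chosen after their values were seen. The comparison of Pex5l-led with Lsamp-led members, with up to 15 named genes each way by the same rule, was added after the data were seen. Gene coordinates and overlaps come from a GENCODE annotation of GRCm38. Intervals are exact 95% Clopper-Pearson or Poisson intervals, and Newcombe's for differences of shares. PCR and droplet loss are outside them. Doublets were called with Scrublet in scanpy 1.11.5 at an expected rate of 0.08, and members called so were kept. Some items named by these rules are not reported here. Clusters are Leiden clusters at resolution 0.8. The call of genes in members over others was tested on simulated counts without spread among nuclei. The other steps were not tested in this way.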

Additional observations from a re-analysis of the deposited data

Results flagged for a closer look

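In 5 gene lists the median log2 ratio had opposite signs in the Female and Male libraries, counting lists of at least 3 measured genes whose medians were 0.1 or more in size in both, and these differences were not tested. For members over others, 14 ADAMTS family genes had medians of 0.14 (Female) and -0.14 (Male), and 12 potassium channel genes -0.31 and 0.23. For Pex5l-led over Lsamp-led members, the medians were 0.19 and -0.30 for 14 proteoglycan genes, -0.69 and 0.27 for 5 immediate early genes, and -0.47 and 0.29 for 3 heat shock genes. Further lists had opposite signs with at least 1 median nearer to 0 than that, or with fewer genes.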

How the results depend on the processing

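No paired analysis was possible because each sex is 1 library and the labels carry no replicate numbers; comparisons among nuclei were made within each library. Of 101 main values under alternatives, 65 stayed within their limits, and of 1704 values of single genes and lists, 1545 did, 156 moved and 3 reversed. Of the values of genes named for members over others, 94 of 350 moved and 1 reversed. For genes named in Pex5l-led over Lsamp-led members 19 of 360 moved, and in Female over Male members 24 of 192 moved and 2 reversed. The settings with members of the strict gate and at most 1 mesothelial UMI, with strict others, with Pex5l or Lsamp left out of the sum, and with Pex5l-led or Lsamp-led members alone were chosen, as were all alternatives for Pex5l-led over Lsamp-led members, after seeing the data. Using 1 library in place of both gave 202 to 248 genes higher and 352 to 395 lower in members, and 191 to 386 higher and 305 to 314 lower in Pex5l-led members. A pseudocount of 20 CPM gave 81 and 100 genes for members, 46 and 37 for Pex5l-led members and 22 and 39 for Female members. A higher UMI minimum gave 28 and 14 for Pex5l-led and 15 and 17 for Female members, and thinning to 1000 UMIs 34 and 28, and 28 and 35. Lower genes in members numbered 304 without doublets and 445 with members restricted to the strict gate and at most 1 mesothelial UMI, and Lsamp-led members alone gave 120 genes higher in Female. The GFP difference from others of 7.66 points (Female) became -13.2 when nuclei were thinned before the rule (31 reporter UMIs in members), -11.0 against strict others, 15.7 in restricted members and 1.97 with at least 5 fibroblast UMIs. That of 17.8 points (Male) became 36.4 (11 reporter UMIs), -2.33 and, with at least 5 fibroblast UMIs, 5.38. The Female minus Male share of members, 8.84 points, was 6.78 when thinned before the rule, 3.09 without Lsamp and 6.48 without Pex5l. The leading cluster's share of members, 69.1%, was 64.1%, 38.3% and 50.7% at resolution 0.4, at 1.2 and without doublets. Nrg1 turned to 0.99 against strict others, and Gpm6a and Rbfox1 to 0.32 and 2.37 in restricted members. The cause was not tested. Depth limits genes with few UMIs in the 212 Male members.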
